A study of Mus musculus with 25 samples.

Results

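To examine how H3K27me3 differs between a pair of direct genetic models of HIF1α stabilization, the peak lists of 3 vhl-/- and 3 HIF1dPA ChIP-seq libraries from regenerating mouse myofibers were compared on chromosomes 1 to 19. These are 6 of the 24 libraries of the series with a peak list, chosen by genotype, antibody and chromosome. Together they held 12985 of the 55242 peaks in all 24 lists. The vhl-/- lists held 3873, 4023 and 3626 autosomal peaks and the HIF1dPA lists 474, 493 and 496.

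All mice, controls included, had a mito-Dendra2 allele switched on by Pax7-Cre(ERT2), so that recombination took place in muscle stem cells (MuSCs) and labelled their progeny. Tamoxifen was given intraperitoneally at 75 mg/kg on 5 consecutive days. Injury of the tibialis anterior followed 2 days later, by injection of BaCl2 (1.2%, 50 µL), and Dendra2+ fibers were taken 14 days post injury (dpi). The vhl-/- myofibers lack VHL, which recognizes hydroxylated HIF1α and directs its degradation. HIF1dPA is a HIF1α with alanine at the prolines that are otherwise hydroxylated, made from a Cre-dependent allele, and it escapes VHL. The wild-type and mfn2-/- libraries with the same antibody, 3 of each, enter no test and appear only as background. The study calls the replicates biological, but the labels do not name animals, so p-values measure the spread between these samples.

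H3K27me3 is deposited by Polycomb repressive complex 2 (PRC2), whose catalytic subunit is EZH2 or EZH1, and it marks genes held silent, in particular developmental regulators with CpG-rich promoters. It is removed by the demethylases KDM6A and KDM6B, which need oxygen. HIF1α accumulates when prolyl hydroxylases lack oxygen, or when VHL is missing, and it activates genes of glycolysis and hypoxic adaptation through sites with the core ACGTG or GCGTG. In regenerating muscle, newly formed myofibers express embryonic and perinatal myosin heavy chains, the latter encoded by Myh8, and replace them with adult myosins as they mature.

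A few promoters show the kinds of site that separate the genotypes or do not. They were chosen after their values were seen. Each line gives the 250 bases before the RefSeq gene start in GRCm38.p6, the assembly named mm10 in the lists, read 5′ to 3′ on the gene's strand with CpG dinucleotides in capitals. Coverage was scored on the window from 250 bases before to 50 after the start. The Lhx6 window (a LIM homeobox regulator) lay under a peak in 3 vhl-/- and 2 HIF1dPA lists, and the Foxl2 window (a forkhead factor) in 3 and 1. The Igf2bp3 window (an RNA-binding protein of fetal tissues) and the Dlx2 window (a distal-less homeobox factor) lay under a peak in 3 vhl-/- lists and 0 HIF1dPA lists. The Foxa1 window (a forkhead pioneer factor) was covered in 1 HIF1dPA list only. Peaks assigned to the gene nevertheless had more summed length in vhl-/- (13669, 12119 and 6570 bp) than in HIF1dPA libraries (1386, 0 and 1448 bp). The Myh8 window was covered in none of the 6, although all 6 had a peak inside the gene.
Lhx6 chr2:36104061-36104310 (- strand): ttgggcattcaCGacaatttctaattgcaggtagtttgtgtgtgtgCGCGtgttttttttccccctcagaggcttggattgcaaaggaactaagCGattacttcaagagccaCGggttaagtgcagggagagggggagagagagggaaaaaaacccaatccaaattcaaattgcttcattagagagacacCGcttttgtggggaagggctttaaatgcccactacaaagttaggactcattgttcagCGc
Foxl2 chr9:98955357-98955606 (+ strand): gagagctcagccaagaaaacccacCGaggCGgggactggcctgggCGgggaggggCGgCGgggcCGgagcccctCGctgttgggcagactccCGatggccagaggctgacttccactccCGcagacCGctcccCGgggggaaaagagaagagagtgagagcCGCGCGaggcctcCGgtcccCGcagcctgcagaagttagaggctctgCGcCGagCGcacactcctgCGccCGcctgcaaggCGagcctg
Igf2bp3 chr6:49214955-49215204 (- strand): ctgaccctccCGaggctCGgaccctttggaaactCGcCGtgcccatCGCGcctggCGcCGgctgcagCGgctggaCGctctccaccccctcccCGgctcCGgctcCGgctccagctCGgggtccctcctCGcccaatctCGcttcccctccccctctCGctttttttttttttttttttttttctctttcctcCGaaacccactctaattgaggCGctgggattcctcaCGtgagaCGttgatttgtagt
Dlx2 chr2:71546755-71547004 (- strand): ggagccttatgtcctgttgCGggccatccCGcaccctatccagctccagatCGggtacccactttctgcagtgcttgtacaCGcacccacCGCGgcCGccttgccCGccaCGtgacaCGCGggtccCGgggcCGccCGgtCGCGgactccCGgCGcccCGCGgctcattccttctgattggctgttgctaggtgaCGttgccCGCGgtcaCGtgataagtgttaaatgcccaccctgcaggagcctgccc
Foxa1 chr12:57546112-57546361 (- strand): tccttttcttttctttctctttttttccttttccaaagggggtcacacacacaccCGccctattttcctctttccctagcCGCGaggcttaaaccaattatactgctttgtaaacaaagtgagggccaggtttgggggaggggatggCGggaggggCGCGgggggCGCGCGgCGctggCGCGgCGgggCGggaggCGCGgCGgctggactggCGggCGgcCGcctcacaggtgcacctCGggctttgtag
Myh8 chr11:67276874-67277123 (+ strand): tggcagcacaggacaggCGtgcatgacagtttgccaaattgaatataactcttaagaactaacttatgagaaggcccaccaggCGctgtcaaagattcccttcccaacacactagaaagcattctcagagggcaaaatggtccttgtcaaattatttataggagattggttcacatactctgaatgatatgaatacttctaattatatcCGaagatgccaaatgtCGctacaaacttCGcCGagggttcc

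These stretches differ in CpG content as well as in coverage. The Igf2bp3 stretch held 21 CpG dinucleotides, 1.00 of the number its base composition would give, and Dlx2 held 24 (0.890). Foxl2 held 22 (0.704) and Foxa1 held 21 (0.887). Lhx6 with 7 (0.548) and Myh8 with 6 (0.536) had fewer.

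The HIF1dPA lists were short and their peaks narrow. They held 488 ± 11.9 peaks (SD, n = 3) against 3841 ± 200 in the vhl-/- lists, 7.87-fold fewer. Wild-type lists held 3541 ± 192 and mfn2-/- lists 2457 ± 116. Peaks covered 0.318, 0.341 and 0.341 Mb in HIF1dPA and 3.75, 4.06 and 3.45 Mb in vhl-/- libraries, an 11.2-fold difference. The gap between genotypes was far wider than the spread within either, and the groups did not overlap. A two-sided exact permutation test of 3 against 3 libraries has 20 arrangements and cannot give less than p = 0.1, which both comparisons reached (Benjamini-Hochberg adjusted p = 0.1 over 10 tests). No comparison of libraries here can therefore pass 0.05. Sequencing depth is unknown, so each difference is one of what was called, and its dependence on depth or on immunoprecipitation efficiency was not tested.

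**Figure D1:**
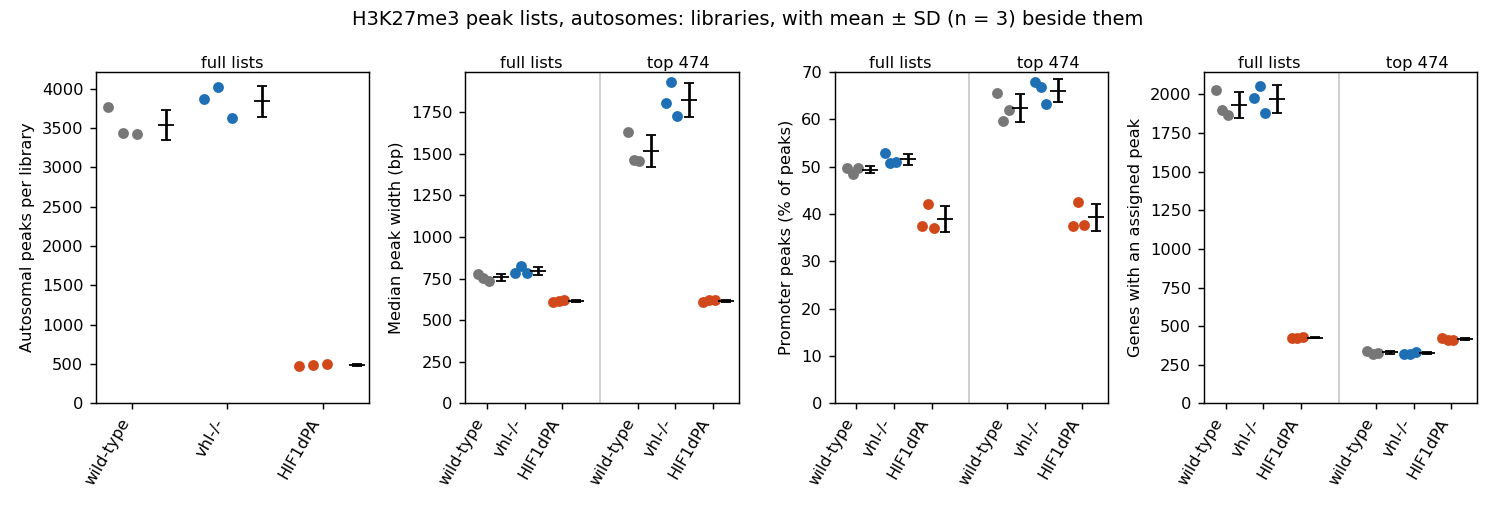
Autosomal H3K27me3 peaks per library, median peak width (bp), promoter share (% of peaks) and genes with an assigned peak, by genotype, for full lists and for the 474 strongest peaks of each list. Points are libraries and the bars beside them mean ± SD (n = 3); HIF1dPA points lie below all others in width and promoter share at both lengths, and in gene number at full length but not at equal length.

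Median peak width was 784, 826 and 785 bp in the vhl-/- lists and 611, 617 and 622 bp in the HIF1dPA lists. The vhl-/- median was 1.29-fold higher (log2 HIF1dPA over vhl-/- of -0.37, exact p = 0.1). When every list was shortened to its 474 strongest peaks, the length of the shortest list, the vhl-/- median was 1808, 1929 and 1727 bp and the HIF1dPA median 611, 619 and 623 bp. The distance thus grew to 2.95-fold (exact p = 0.1, adjusted p = 0.1125 over 9 tests), since shortening removes most peaks of the vhl-/- lists and few of the HIF1dPA lists.

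Wide peaks of at least 3 kb, the form H3K27me3 takes over silenced developmental loci, numbered 47, 55 and 35 in the vhl-/- libraries and 2, 1 and 2 in the HIF1dPA libraries. Their share of the list was 1.18 ± 0.203% in vhl-/- and 0.343 ± 0.121% in HIF1dPA (exact p = 0.1), and 9.35 ± 1.90% against 0.352 ± 0.122% at equal length. Among peaks with a score of at least 100, of which the HIF1dPA lists held only 16, 25 and 20, the direction turned. The share was then 1.20 points higher in HIF1dPA (exact p = 0.8). The widest vhl-/- peaks were at Igf2bp3 in replicates 1 and 3 (10414 and 9226 bp) and at Nkx2-4, a homeobox gene, in replicate 2 (7701 bp). All 5 wide HIF1dPA peaks were at 2 genes. One was at Myh8 in every replicate, and the other was at Coil, which encodes the Cajal body protein coilin, in replicates 1 and 3. The Coil peak of replicate 1 scored 75.8. The HIF1dPA share among peaks with scores of at least 100 thus rests on the Myh8 peaks and the Coil peak of replicate 3. Of the vhl-/- wide peaks, 31, 37 and 25 overlapped a HIF1dPA peak, that is 66.0, 67.3 and 71.4%. Most of the widest vhl-/- regions therefore held some called HIF1dPA signal, but in a narrower peak.

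The annotation classes differed too. Promoters, which in the deposited classes reach 3 kb from a transcript start, took 52.9, 50.7 and 51.0% of vhl-/- peaks and 37.6, 42.2 and 37.1% of HIF1dPA peaks. The difference was -12.6 percentage points (exact p = 0.1) and widened to -26.7 points at equal length, where the shares were 66.0 ± 2.43% and 39.3 ± 2.86%. Among peaks with a score of at least 100 it was -3.12 points (exact p = 0.4), with 16 to 25 such peaks per HIF1dPA list. The class within 1 kb of a start carried most of it, with 29.9 ± 0.783% against 19.5 ± 1.43%. The class from 2 to 3 kb was nearly level, at 8.46% and 8.28%.

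Distal intergenic peaks made up the counterpart. They took 28.9, 31.3 and 31.1% of vhl-/- lists and 42.2, 37.5 and 45.2% of HIF1dPA lists, a difference of 11.2 points that became 19.2 at equal length (exact p = 0.1 for both). Intron peaks took 13.3 ± 0.260% and 15.9 ± 1.56% at full length and 5.98 ± 0.322% and 15.6 ± 1.59% at equal length. Exon peaks were few, 2.33 ± 0.243% and 1.37 ± 0.135%, and at equal length the genotypes overlapped (exact p = 0.3). The median distance from a peak to the nearest RefSeq start was 6312 ± 403 bp in vhl-/- and 10895 ± 1081 bp in HIF1dPA lists.

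The score, which is 10 times the -log10 p of the peak caller, moved with these measures. Its median was 65.5 ± 0.670 in vhl-/- and 55.8 ± 0.435 in HIF1dPA lists, close to the lowest deposited score of 50. Scores of at least 100 were reached by 820, 875 and 717 vhl-/- peaks and by 16, 25 and 20 HIF1dPA peaks. Peaks of like score still differed, in comparisons chosen after the data were seen. From 50 to below 60, where the lists held on average 1510 and 334 peaks, median width was 630 ± 9.71 bp in vhl-/- and 593 ± 8.61 bp in HIF1dPA, and the promoter share 42.4 ± 1.17% and 35.1 ± 3.25%. From 60 to below 100, width was 854 ± 21.7 and 716 ± 19.2 bp and the promoter share 54.2 ± 1.53% and 45.3 ± 1.70%. Within these bands the differences in width and promoter share kept their direction but were smaller than at equal length. The intron share from 50 to below 60 was 16.9 ± 0.678% in vhl-/- and 17.4 ± 2.18% in HIF1dPA. From 60 to below 100 it was 12.8 ± 0.776% and 14.8 ± 4.17%, and in both bands the libraries of the genotypes overlapped. A score depends on depth, so a band does not hold the same enrichment in both genotypes.

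Promoter sequence was examined with the 31365 RefSeq promoter windows on 18 of the 19 autosomes. Peaks covered 379 ± 42.3 windows per vhl-/- list and 28.0 ± 1.73 per HIF1dPA list, or 84.7 ± 11.0 and 28.0 at equal length. The median CpG ratio of covered windows, the CpG count over that given by base composition, was 0.643 ± 0.0266 in vhl-/- and 0.553 ± 0.0331 in HIF1dPA, above the 0.388 of all windows. Windows with a CpG ratio above 0.6 and a GC content above 50% made up 48.2 ± 5.63% of those covered in vhl-/- and 29.8 ± 3.71% of those covered in HIF1dPA, beside 33.9% of all windows. By this second measure the HIF1dPA windows were below promoters at large, so the measures differ in direction for HIF1dPA. The HIF core motif, ACGTG or GCGTG on either strand, was found in 51.0% of windows covered in vhl-/- and 46.3% of those covered in HIF1dPA, beside 44.1% of all windows. A match is a description of letters and not of HIF binding.

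The covered length of a gene is the summed width of all peaks assigned to it by the deposited annotation, distal intergenic ones included. Of the genes with a peak in all 6 lists, Myh8 had the highest ratio of HIF1dPA to vhl-/- covered length. It is on the + strand at chr11:67277124-67308634. Its peak was 3211, 3068 and 3263 bp wide in the HIF1dPA libraries and 1839, 1534 and 1527 bp in the vhl-/- libraries. The difference was 1547 bp (exact p = 0.1), and the groups did not overlap. The score was 1442, 1453 and 1468 in HIF1dPA, the top of each list. It was 251, 155 and 138 in vhl-/-, at ranks 94, 343 and 333.

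The peaks lie inside the gene rather than over its start. The bases shared by all 6 lists run from chr11:67282961 to 67283643, 683 bp that begin 5837 bp past the RefSeq start. Each vhl-/- peak started at least 249 bp after the latest HIF1dPA start and ended at least 66 bp before the earliest HIF1dPA end, so every vhl-/- peak was nested within the HIF1dPA interval. The deposited annotation calls the HIF1dPA peaks promoter at 1 to 2 kb and the vhl-/- peaks promoter at 2 to 3 kb, relative to a transcript start other than the RefSeq one. In wild-type libraries the corresponding peak was 3476, 3354 and 3309 bp wide with a score of 3100, the highest value in the lists. The score was exactly 3100 in each wild-type library, so it may be a ceiling, and its ratio to the other scores cannot be read. In mfn2-/- libraries the best-scoring peak there was 2035, 3060 and 2906 bp wide, with scores of 402, 511 and 414. Of 13 myosin heavy chain genes, Myh8 was the only one with a peak in any of the 6 lists.

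**Figure D2:**
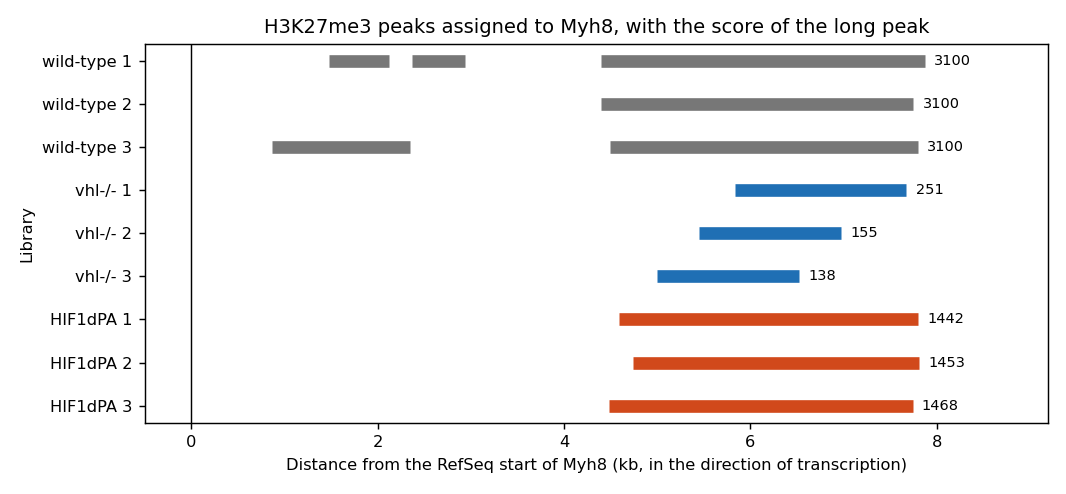
Extent of the H3K27me3 peaks assigned to Myh8 in each library, as distance in kb from the RefSeq start of the gene in the direction of transcription, with the score of the long peak beside it. Each bar is a peak; the HIF1dPA bars, 3068 to 3263 bp long, extend past both ends of the vhl-/- bars, 1527 to 1839 bp long, and wild-type replicates 1 and 3 also have short peaks nearer the start.

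Across genes, presence in a list separated the genotypes mostly in one direction. The vhl-/- lists assigned peaks to 1978, 2058 and 1877 genes and the HIF1dPA lists to 422, 425 and 431, a 4.62-fold difference. At equal length this turned, with 322, 323 and 331 genes in vhl-/- and 422, 409 and 413 in HIF1dPA (log2 of 0.35, exact p = 0.1). The strongest vhl-/- peaks were clustered, 1.46 per gene against 1.14 in HIF1dPA. Of 3773 genes with a peak in any list, 463 (12.3%) had one in all 3 vhl-/- and no HIF1dPA list, 2 (0.0530%) had the reverse and 39 (1.03%) had one in all 6. At equal length these were 27 (2.08%), 6 (0.462%) and 28 (2.16%) of 1298 genes. Unequal list lengths favor the first pattern at full length.

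The 39 genes present in all 6 lists included homeobox regulators (Nkx2-4, Lhx4, Lhx9, Gsx2, Nkx2-5 and Nkx3-2), other patterning factors (Sp8, Pax6, Gata4, Twist1, Foxl2 and Hoxd13), and the oncofetal RNA-binding genes Lin28b and Igf2bp3. Covered length was greater in every vhl-/- than in every HIF1dPA list for 34 of them (87.2%), and greater in every HIF1dPA list for 1, Myh8 (2.56%). It overlapped for 4, Gm5614, Coil, Gm9075 and Chl1. The median ratio of HIF1dPA to vhl-/- covered length was 0.144, with a range of 0.0454 to 1.95. Over the whole lists the ratio of covered base pairs was 0.0889, so a lower length in HIF1dPA was not particular to these genes. The best score was higher in every vhl-/- list for 33 genes (84.6%) and in every HIF1dPA list for 3, Myh8, Gm5614 and Gm9075 (7.69%).

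**Figure D3:**
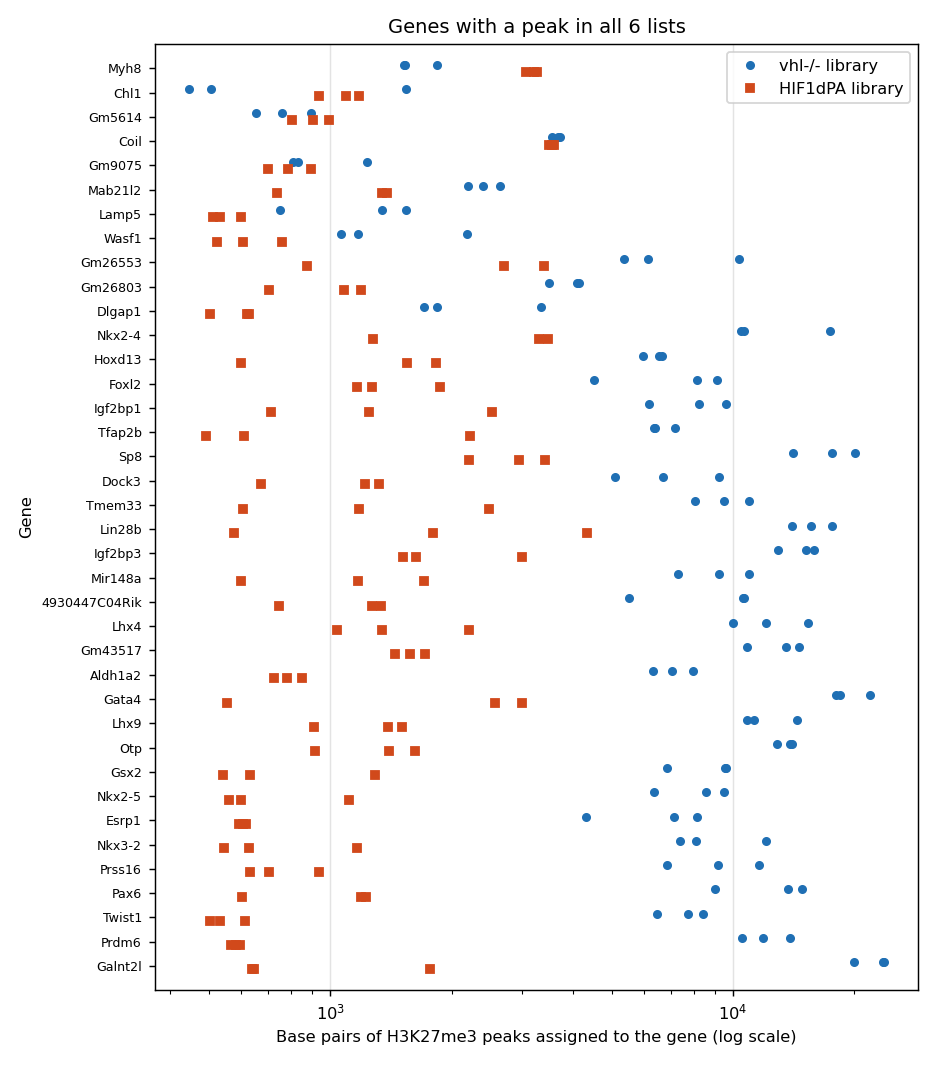
Base pairs covered by peaks assigned to genes with a peak in all 6 lists, on a log axis, with genes ordered by the ratio of HIF1dPA to vhl-/- means; 1 of the 39 genes is not drawn. Circles are vhl-/- and squares HIF1dPA libraries, and every circle lies to the right of every square except at Chl1, Gm5614, Coil and Gm9075, where they overlap, and at Myh8, where every square lies to the right.

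Nkx2-4, a homeobox gene of the NK2 family, was covered over 10473, 17452 and 10678 bp in vhl-/- libraries and 3462, 3291 and 1276 bp in HIF1dPA libraries. Lin28b, which blocks maturation of let-7 microRNAs, was covered over 15599, 17587 and 13982 bp against 576, 4329 and 1797 bp. Sp8, a zinc finger factor of limb and brain outgrowth, had assigned peaks over 17670, 14109 and 20134 bp against 3416, 2204 and 2941 bp. Its widest peaks in vhl-/- replicates 1 and 3 were distal intergenic. For each of these genes every vhl-/- library was above every HIF1dPA library.

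Lhx4, a LIM homeobox gene of motor neuron and pituitary development, had 12103, 15375 and 10027 bp in vhl-/- and 1341, 1036 and 2205 bp in HIF1dPA libraries. Igf2bp3 had 15925, 15211 and 12920 bp against 2998, 1634 and 1517 bp. The HIF1dPA peaks assigned to Igf2bp3 left its start uncovered, as given with the sequences above. The predicted genes Gm26553 and Gm43517 showed the same order. Gm26553 had 10324, 6136 and 5366 bp against 874, 3388 and 2702 bp, and Gm43517 had 14616, 13546 and 10824 bp against 1444, 1572 and 1718 bp.

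The largest ratios of covered length among the 39 genes were all toward vhl-/-. Galnt2l had 20033, 23691 and 23582 bp in vhl-/- and 637, 1769 and 647 bp in HIF1dPA libraries. Prdm6, a PR-domain factor of smooth muscle, had 11881, 10542 and 13838 bp against 581, 566 and 595 bp. Twist1, a bHLH factor that holds mesenchymal cells undifferentiated, had 8417, 7754 and 6478 bp against 501, 533 and 612 bp. At Prdm6 and Twist1 every HIF1dPA library held 1 peak, narrower than the median of its list. Pax6, the eye and forebrain regulator, had 14859, 9047 and 13676 bp against 1194, 1223 and 604 bp, and Prss16, a thymic serine protease, had 11630, 6851 and 9183 bp against 939, 704 and 631 bp.

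A small set stood level. Coil was covered over 3684, 3709 and 3554 bp in vhl-/- and 3549, 3601 and 3485 bp in HIF1dPA libraries, while its score was 493, 238 and 408 against 75.8, 157 and 206. Gm5614, a predicted gene, had 756, 893 and 653 bp against 903, 804 and 994 bp, with scores of 253, 347 and 428 against 510, 522 and 450. These loci had like width in both genotypes, and Gm5614 held ranks 2, 2 and 3 in the HIF1dPA lists.

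Other strong HIF1dPA peaks lay at predicted genes with few or no vhl-/- peaks. Gm10801 was covered over 1826, 3102 and 2148 bp in HIF1dPA and 0, 1426 and 1840 bp in vhl-/- libraries, and Gm10800 over 1405, 1872 and 1555 bp against 0, 1539 and 0 bp. The share of autosomal H3K27me3 peaks that overlapped an H3K9me3 peak of the same genotype, a mark of constitutive heterochromatin, was 3.13 ± 0.771% in HIF1dPA and 0.338 ± 0.0968% in vhl-/- lists. Its part in these results, and that of repeated sequence, was not tested.

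Genes with a peak in all 3 vhl-/- and no HIF1dPA list were led, by score percentile within the list, by Gm20467, Nrn1, Gm11290, Dmrt3, Gm12993, Kcnmb4os2, Gm12446, Fgf20, Gm11535 and Pde10a. Nrn1, which encodes neuritin, a neurite outgrowth factor, was covered over 5369, 8809 and 7584 bp. Dmrt3, a doublesex-related factor of spinal interneurons, had 4863, 3901 and 2744 bp, and Fgf20, a secreted growth factor, had 2849, 3692 and 4618 bp. Gm20467 had 11479, 12869 and 13059 bp. Pde10a, a cyclic nucleotide phosphodiesterase of striatum, had 2400, 2546 and 1649 bp.

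The opposite pattern rested on 2 genes with weak peaks. The predicted gene 2210408I21Rik had 681, 734 and 723 bp in HIF1dPA libraries, with scores of 56.9, 87.8 and 66.5. Arhgef26, a guanine nucleotide exchange factor gene, had 680, 673 and 588 bp with scores of 52.9, 50.6 and 57.6. The 2210408I21Rik peaks lay in one intron at chr13:77438455-77439339, whereas those of Arhgef26 lay at separate intergenic places, so the latter was shared as a gene name and not as a site. A further 10 genes had a peak in 2 HIF1dPA and no vhl-/- list, with scores from 51.9 to 71.9. They included Slc39a8, Gm4791, Rapgef5, Gm8919, Gm22223, Xkr6, Gm7367, Rpl27a-ps2 and Il33. Of the 358 genes found only in HIF1dPA lists, 346 were in a single list.

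Developmental regulators, the best known targets of PRC2, were counted next. As background, 7.32% of 20661 RefSeq protein-coding autosomal genes had a peak in a vhl-/- list on average and 1.49% in a HIF1dPA list, a 4.92-fold difference, and 1.15% and 1.45% at equal length. Among 103 homeobox genes outside the Hox clusters, 87, 87 and 82 had a peak in vhl-/- and 32, 35 and 34 in HIF1dPA lists. Of the 78 with a peak in all 3 vhl-/- lists, 75.6% had one in at least 1 HIF1dPA list, beside 44.7% of all 837 genes in all 3 vhl-/- lists. These genes took a like share of peaks in each genotype at full length, 9.22 ± 0.284% in vhl-/- and 9.09 ± 0.210% in HIF1dPA, but 17.2 ± 1.40% and 8.86% at equal length. Nkx2-5, the cardiac homeobox factor, had 8551, 9474 and 6360 bp against 598, 1114 and 560 bp. Nkx2-3 had 4298, 4763 and 4570 bp in vhl-/- and no HIF1dPA peak.

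The Hox clusters, which set position along the body axis, had a ratio of genes with a peak near that of all genes at full length, 4.18-fold. Of 39 Hox genes, 15, 15 and 16 had a peak in vhl-/- and 3, 4 and 4 in HIF1dPA lists, and at equal length 8 in each vhl-/- list against 3, 4 and 4 (exact p = 0.1). Peaks assigned to genes of the Hoxd cluster covered 22293, 31326 and 23603 bp in vhl-/- and 1886, 1551 and 1834 bp in HIF1dPA libraries. The Hoxc cluster had 20220, 17881 and 17371 bp against 0, 1235 and 525 bp. Hoxd13, the most posterior Hoxd gene and a regulator of digits, was the only Hox gene with a peak in all 6 lists, at 5978, 6565 and 6662 bp against 599, 1551 and 1834 bp. Hoxa13 had 3181, 4093 and 4396 bp in vhl-/- and a single HIF1dPA peak of 2457 bp in replicate 2.

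Other transcription factor families had more genes with a peak in vhl-/- at full length, by a smaller ratio than the 4.92-fold of all genes, from 2.50-fold for T-box to 4.43-fold for Gata and related genes. Of 9 Pax genes, 7, 8 and 8 had a peak in vhl-/- and 3 in each HIF1dPA list. Pax7, which defines MuSCs, had 0, 1322 and 732 bp in vhl-/- and none in HIF1dPA libraries, and Pax3, its paralog, had 4349, 16039 and 9232 bp against 0, 1172 and 0 bp. Of 16 T-box genes, 8.33 on average had a peak in vhl-/- and 3.33 in HIF1dPA lists, and all 7 in every vhl-/- list were found in at least 1 HIF1dPA list. Of 45 bHLH genes the means were 25.3 and 8.33, and of 29 Fox genes 19, 19 and 16 against 6, 5 and 4. In the Gata, Zic, Sall and Gli group of 29 zinc finger genes the means were 20.7 and 4.67, and Gata4, of heart and endoderm, had 21936, 18493 and 17981 bp against 2557, 552 and 2996 bp. At equal length most of these differences were small. The means were 3.67 and 3.00 for Pax (exact p = 0.4), 5.00 and 3.33 for T-box (exact p = 0.3), 9.33 and 8.33 for bHLH (exact p = 0.6), 8 and 5 for Fox (exact p = 0.3) and 11.3 and 4.33 for the Gata group (exact p = 0.1).

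Genes of secreted signals and their receptors had HIF1dPA peaks at 3.17% for the Wnt list and 1.31% for the FGF, BMP, GDF and hedgehog list, beside 1.49% of all genes. Of 42 Wnt pathway genes, 18.3 (43.7%, beside 7.32% of all genes) had a peak on average in vhl-/- and 1.33 in HIF1dPA lists. The ratio was 13.75-fold, beside 4.92-fold for all genes. Of the 12 in all 3 vhl-/- lists, 16.7% had a HIF1dPA peak. These were Wnt9b and Wif1, a secreted Wnt inhibitor that had 3113, 3813 and 4603 bp against 603, 633 and 0 bp. Among 51 FGF, BMP, GDF and hedgehog genes the means were 16.7 and 0.667. At equal length the means were 2.67 and 1.33 for Wnt and 2.00 and 0.667 for FGF and related genes (exact p = 0.3 for both). Shh, the hedgehog morphogen, had 892, 710 and 939 bp in vhl-/- and no HIF1dPA peak. The retention shares of lists rest on few genes, and their difference from that of all genes was not tested.

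Potassium channel and neurotransmitter receptor genes had the opposite order at equal length. Of 74 potassium channel genes, 24, 22 and 25 had a peak in vhl-/- and 4, 3 and 6 in HIF1dPA lists. At equal length the counts were 3, 2 and 1 against 4, 3 and 6 (exact p = 0.2). Of 89 neurotransmitter receptor genes, 34, 23 and 23 had one against 4, 9 and 5, and at equal length 1, 2 and 1 against 4, 9 and 5 (exact p = 0.1). In vhl-/- lists of equal length, 2.703% of potassium channel and 1.498% of neurotransmitter receptor genes had a peak on average, beside 1.15% of all genes. In HIF1dPA lists the shares were 5.856% and 6.742%, beside 1.45% of all genes. The share of all genes was thus also higher in HIF1dPA at equal length. Whether the shares of these lists differ from those of all genes was not tested. Over all 23 lists of genes, 20 had a lower mean count in HIF1dPA at full length and 0 a higher one (smallest adjusted p = 0.124, exact permutation). At equal length 13 were lower and 6 higher (smallest adjusted p = 0.525, exact permutation).

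**Figure D4:**
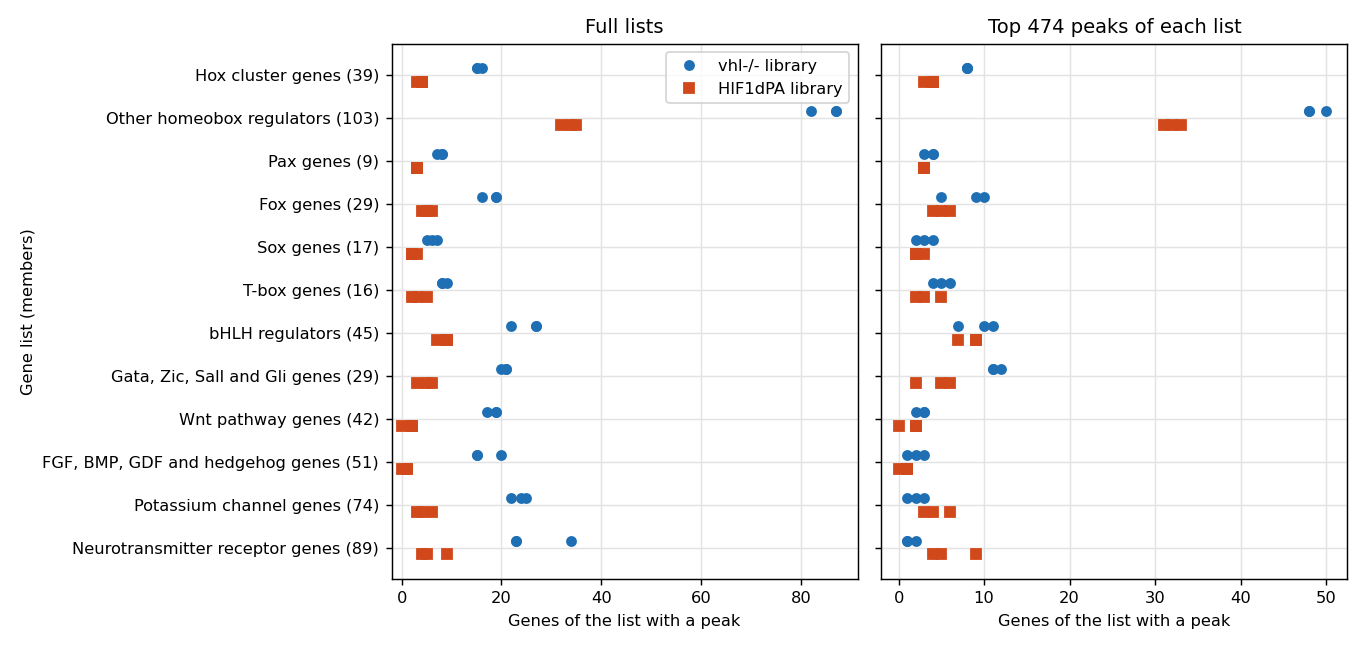
Number of genes of each list (members in parentheses) with an H3K27me3 peak, for full lists and for the 474 strongest peaks of each library, on separate scales. Circles are vhl-/- and squares HIF1dPA libraries; at full length homeobox genes stand at 82 to 87 and 32 to 35, and at equal length neurotransmitter receptor genes are higher in every HIF1dPA library.

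Genes of the HIF axis were counted beside the 7.32% and 1.49% of all genes. None of 10 HIF pathway genes, which include Vhl, Hif1a and the prolyl hydroxylase genes, had a peak in any of the 6 lists, so the lists give no check of the deleted gene or of the transgene. Of 50 established HIF targets, 2.67 (5.33%) on average had a peak in vhl-/- and 0.333 (0.667%) in HIF1dPA lists. Whether these shares differ from those of all genes was not tested. Car3, a muscle carbonic anhydrase, had 0, 1319 and 1538 bp in vhl-/- libraries. Kdm3a, an H3K9 demethylase, had 0, 720 and 800 bp, and Cxcr4, a chemokine receptor, had one 651 bp peak in HIF1dPA replicate 1. Of 12 PRC2 and H3K27 demethylase genes, Epop, a PRC2 partner, had 2311, 1975 and 1809 bp in vhl-/- and no HIF1dPA peak.

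Marker genes were counted as a check of the tissue, beside the 7.32% (vhl-/-) and 1.49% (HIF1dPA) of all genes. None of 18 mature myofiber genes had a peak in any of the 6 lists. Of 11 MuSC markers, 2.00 (18.2%) on average had a peak in vhl-/- and 0.667 (6.06%) in HIF1dPA lists. The means were 2.67 (20.5%) and 0.667 (5.13%) for 13 fibro-adipogenic progenitor markers, and 2.00 (18.2%) and 0 for 11 endothelial markers. Of 11 macrophage and leukocyte markers they were 1.33 (12.1%) and 0.333 (3.03%), and of 8 Schwann cell and neuron markers 1.00 (12.5%) and 0.333 (4.17%). These lists are short, and whether their shares differ from those of all genes was not tested. Calcr, a receptor of quiescent MuSCs, had 1582, 1570 and 1407 bp in vhl-/- libraries, and Pdgfra, of fibro-adipogenic progenitors, had 4039, 1210 and 4690 bp against 516, 0 and 0 bp. A peak list does not give the cell composition of a sample, and its part in these results was not tested.

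The location of HIF1dPA peaks was then compared with that of vhl-/- peaks. Of all HIF1dPA peaks, 47.0, 54.2 and 50.4% overlapped a peak in any of the 3 vhl-/- lists by at least 1 bp, and 28.6 ± 2.40% did so when all lists were cut to 474 peaks. In reverse, 11.7 ± 0.633% of vhl-/- peaks overlapped a HIF1dPA peak, and 36.6 ± 2.31% at equal length. Where peaks overlapped, the HIF1dPA peak was the narrower in 91.5, 91.8 and 88.8% of 223, 267 and 250 cases. The median ratio of widths was 0.456, 0.485 and 0.524.

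Overlap declined with rank. Of the 50 strongest HIF1dPA peaks 93.3 ± 5.03% overlapped a vhl-/- peak, falling to 69.3 ± 11.7% at ranks 51 to 100, 51.7 ± 9.29% at 101 to 200 and 39.8 ± 3.86% at 201 to 474. The same peaks were found less in the other HIF1dPA replicates, with 44.0% of the top 50 and 6.33% at ranks 201 to 474. Those lists are shorter than the full vhl-/- lists and so offer fewer peaks to overlap. Against vhl-/- lists cut to 474 peaks, the shares were 72.0 ± 4.00% of the top 50 and 19.1 ± 3.15% at ranks 201 to 474. Even then the vhl-/- lists were more in number and had wider peaks, and the part of either in this gap was not tested. Among vhl-/- libraries 100% of the top 50 and 89.1% of ranks 201 to 474 overlapped a peak of another vhl-/- library. HIF1dPA libraries thus shared few of their weaker peaks with each other.

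**Figure D5:**
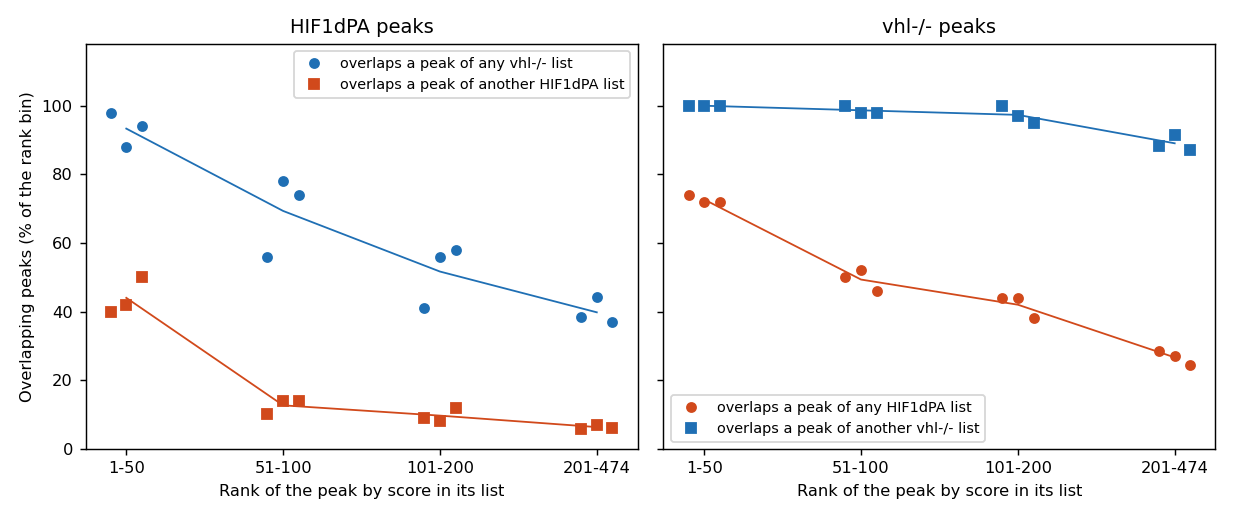
Percent of the peaks in each rank range, by score, that overlap a peak of the other genotype (circles) or of another library of the same genotype (squares), for HIF1dPA peaks on the left and vhl-/- peaks on the right. Points are libraries and lines join means of 3; overlap of HIF1dPA peaks with vhl-/- lists goes from 93.3% in the top 50 to 39.8% at ranks 201 to 474, and with other HIF1dPA lists from 44.0% to 6.33%.

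Similarity in base pairs gave the same picture. The mean Jaccard index, which divides the length common to both lists by the length in at least one, was 0.190 within vhl-/-, 0.0421 within HIF1dPA and 0.0270 between them. At equal length it was 0.194, 0.0431 and 0.0494, so that the index between genotypes was no lower than that within HIF1dPA. When peaks of the 6 lists were merged, 27 regions were in all 3 HIF1dPA lists, and 26 of them (96.3%) were also in a vhl-/- list. Of 1179 regions in a single HIF1dPA list, 39.4% were in a vhl-/- list. The 714 regions in 1 HIF1dPA and no vhl-/- list had a median width of 590 bp and were 21.3% promoter. The 534 in all 3 vhl-/- and no HIF1dPA list had a median width of 2161 bp and were 62.9% promoter, and the 21 in all 6 lists had 6065 bp and 76.2%. Merging can only lengthen a region as lists join it, and a wide region is met by more lists. Part of this rise in width with list number is therefore fixed in advance. Within vhl-/- alone, regions in 1 list and no HIF1dPA list had a median width of 683 bp.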

How the data were processed

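H3K27me3 ChIP-seq was carried out by the authors on formaldehyde-fixed chromatin (1%), sonicated to fragments near 500 bp. The authors deposited 1 peak list per library with start and end positions and a score, 10 times the -log10 p of MACS, from 50 (p = 1e-05). The submitters' processing notes name BWA 0.7.5, MACS, deepTools 3.5.0 and mm10. Use of the input, duplicate handling and the annotation tool are not given in the sources used here. Lists hold no read totals, so depth is unknown and no counting interval was computed.

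From the lists, peaks on chromosomes 1 to 19 were kept, width was end minus start plus 1, and genes and annotation classes were the deposited ones. Equal length means the 474 strongest peaks of each list. Libraries were grouped by labelled genotype and compared with two-sided exact permutation tests (20 arrangements, smallest p = 0.1), on log2 for numbers and widths and on percentage points for shares, with Benjamini-Hochberg adjustment within each list length. Mean ± SD is over 3 libraries. Test scripts were checked on simulated data. Promoter windows and the gene background came from RefSeq tables of GRCm38.p6.

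Named genes were Myh8, the 10 genes of highest mean score percentile among those in all 6 lists, in vhl-/- lists only and in HIF1dPA lists only (with those in 2 HIF1dPA lists), the 5 with the largest ratio of covered length, and members of gene lists. Members and gene lists were chosen with earlier results of these data known. Other genes named were chosen after their values were seen, and a few genes are not reported here. Alternatives were equal length, a score of at least 100, joined peaks, promoter peaks only, an overlap of at least 0.5 of the peak, no H3K9me3 overlap, a replicate block and leaving out each library. Score bands and promoter windows at equal length were added after seeing the data. The scripts ran in Python 3.11.15 with pandas 2.3.3, numpy 2.4.6 and matplotlib 3.10.9.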

Additional observations from a re-analysis of the deposited data

Results flagged for a closer look

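For 6 of 9 measures every vhl-/- library lay on one side of the wild-type mean and every HIF1dPA library on the other. The difference between these gaps was not tested beyond the comparison of 3 with 3 libraries. In vhl-/- replicate 3 there were 3626 peaks over 3.45 Mb, below the 3763 peaks and 3.51 Mb of wild-type replicate 1. Distal intergenic shares of 31.3 and 31.1% in vhl-/- lay within the 31.0 to 32.4% of wild-type libraries. For median width, promoter share and wide peaks, vhl-/- and wild-type libraries did not overlap. HIF1dPA minus vhl-/- was -3353 peaks (wild-type mean 3541), -3.42 Mb covered (wild-type 3.20 Mb), -182 bp of median width (wild-type 758 bp) and -12.6 percentage points of promoter peaks (wild-type 49.3%). It was 11.2 points of distal intergenic peaks (wild-type 31.9%) and -0.839 points of peaks of at least 3 kb (wild-type 0.605%). For peak number, vhl-/- libraries were above the wild-type mean by 300 peaks and HIF1dPA minus wild-type was -3053. Outside the autosomes, X chromosome peaks made up 1.08% of HIF1dPA peaks on average (0.998 to 1.24%), above the 0.260% of wild-type libraries (0.146 to 0.344%) and the 0.277% of vhl-/- libraries. Their number was 6, 5 and 5 in HIF1dPA, 13, 10 and 5 in wild-type and 10, 12 and 10 in vhl-/- libraries. The higher HIF1dPA share thus went with short lists and not with more X peaks. In mfn2-/- libraries the X share was 30.2%.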

How the results depend on the processing

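Direction was kept, or for values with no test the value stayed near that reported, in 173 of 206 checks of the main measures. No test of 3 against 3 libraries could pass 0.05 under any setting. With 474 peaks per list, the log2 difference in genes turned to 0.35. Genes in vhl-/- lists only fell to 27 and genes in HIF1dPA lists only rose to 6, overlap of HIF1dPA peaks was 28.6% and the Jaccard index between genotypes 0.0494. Mean counts of potassium channel genes (2.33), neurotransmitter receptor genes (4.67) and HIF targets, MuSC, macrophage and Schwann cell markers (0.333 each) then became higher in HIF1dPA. With scores of at least 100, the share of peaks of 3 kb or more (1.20 points), the exon share (1.76) and the intron share (-7.17) reversed, as did macrophage markers (0.333). The gene counts were then 191 in vhl-/- lists only, 1 in HIF1dPA lists only and 3 in all 6, overlap was 84.6%, and the Jaccard index was 0.209 within vhl-/-, 0.223 within HIF1dPA and 0.0118 between. These HIF1dPA lists hold 16 to 25 peaks. Joining peaks within 1000 bp gave a Jaccard index of 0.218 within vhl-/-. Promoter peaks alone gave 0 genes in HIF1dPA lists only and 16 in all 6. Requiring 0.5 of the peak to overlap gave 45.3%. Without peaks overlapping H3K9me3, 1 gene was in HIF1dPA lists only and the Jaccard index within HIF1dPA was 0.0274. Except where the list itself is shorter, the cause was not tested.

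Leaving out each library in turn, genes in vhl-/- lists only ranged from 538 to 721 (721 without vhl-/- replicate 3), genes in HIF1dPA lists only from 2 to 6 and genes in all 6 from 39 to 77. The last 2 grew without any HIF1dPA replicate, as fewer lists need hold a gene. Overlap ranged from 45.3 to 52.3%, and the Jaccard index from 0.187 to 0.196 within vhl-/- and from 0.0365 to 0.0477 within HIF1dPA. With the replicate number as a block, the log2 difference in peak number stayed -2.98 (exact p = 0.25, the smallest that 8 arrangements allow). No call was possible with or without the block. Deviations of same-numbered libraries correlated at -0.065, -0.034 and -0.066 over 312 genes. Presence or absence in so few lists cannot show whether same-numbered libraries share a batch, and the labels do not say. Unknown depth limits every difference in number, width and score.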
